A study of Mus musculus with 4 samples.

Results

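The uroplakins and Snx31 were examined in whole ureters dissected from E15.5 NMRI mouse embryos. The genes are Upk1a, Upk1b, Upk2, Upk3a, Upk3b, Upk3bl and Snx31. They were found by gene name among the 39429 gene probes of the array, which gave 8 probes of 7 genes, with 2 probes for Upk3bl and 1 for each other gene. The cKO embryos carried Pax2-cre/+ and Trp63(dN-flox/dN-flox). The control embryos carried Trp63(dN-flox/?), in which the second allele is left unspecified, and no cre is listed for them. Both genotypes thus share at least 1 floxed allele, and an effect of the cre transgene cannot be told apart from that of the Trp63 deletion. Pax2-cre is driven by regulatory sequence of Pax2, a gene of the nephric duct and its derivatives, and the dissected ureters also hold mesenchyme, muscle and vessels. On each of 4 arrays a cKO RNA met a control RNA of matching sex, female in replicates 1 and 2 and male in replicates 3 and 4. The cKO RNA carried the red dye in replicates 1 and 3 and the green dye in replicates 2 and 4. The labels do not state whether an RNA came from 1 embryo or from a pool, so the p-values rest on the spread between these RNAs. For each gene the fit also draws on the spread of all genes.

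Uroplakins are membrane proteins of the urothelium, the lining of the ureter and bladder. They assemble into rigid plaques on the apical face of its superficial cells and help to make it impermeable. Upk1a and Upk1b are tetraspanins, proteins that cross the membrane by 4 helices. Upk2 pairs with Upk1a, and Upk3a or its relative Upk3b pairs with Upk1b, and the pairs leave the endoplasmic reticulum together. Upk3bl is a gene of the Upk3 family that is less studied. Snx31 encodes a sorting nexin, a protein of endosomes, which binds uroplakins and takes part in their turnover. Trp63 encodes p63, whose ΔN form marks basal cells and is the form targeted here.

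Each probe is a 60-base oligonucleotide whose position the scanner files give on build mm9. The 2 Upk3bl probes lie on chromosome 5 at 136540130 to 136540189 (A_51_P345340) and at 136540125 to 136540184 (A_55_P2057296), both on the plus strand. They overlap, so they are near repeats of each other and not separate evidence. Their first 30 bases are shown here with the bases that lie in the 55-base run held by both probes in capitals.
A_51_P345340: GCTTGGACTAGGCAATCTTTATCAGAAATA
A_55_P2057296: tcaaaGCTTGGACTAGGCAATCTTTATCAG
The other probe on chromosome 5, that of Upk3b (A_52_P114889, 136520522 to 136520581, plus strand), shared no run longer than 6 bases with either of them. Between any probes of different members the longest shared run was 4 to 7 bases.

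The probe of Upk2 (A_51_P351384, chromosome 9, 44260822 to 44260881, minus strand) and that of Upk1a (A_55_P2156425, chromosome 7, 31388111 to 31388170, minus strand) hold AATAAA, the letters of the usual polyadenylation signal. Their last 30 bases are printed with these letters in capitals, since a probe near the 3′ end reads transcripts that share this end.
Upk2: ctcttaactgtacttaattctcacAATAAA
Upk1a: gttggctggacacccAATAAAtactggctg
The Upk1b probe (A_51_P113195, chromosome 16, 38773859 to 38773918, minus strand) and the Snx31 probe (A_51_P120388, chromosome 15, 36434054 to 36434113, minus strand) hold no such letters, nor do those of Upk3a and Upk3b. The Upk3a probe (A_52_P461343, chromosome 15, plus strand) is given from 84851819 to 84852720, a span of 902 bases for 60 bases of probe, so its sequence is split in the genome. Both Upk3bl probes also hold the letters, further in.

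Values are given as log2 ratios of cKO over control on each array and as levels, the normalised log2 intensity of a probe in each RNA. A gene was called changed at an adjusted p under 0.05 in limma over 21501 genes, each represented by its brightest probe that passed a filter on dim signal. All 8 probes passed that filter, with 100% of their spots well above background in every RNA of both genotypes, against 71.8% to 77.0% of all gene probe spots by array and dye. Of the 7 genes, 2 were called lower (Upk3bl and Upk2) and 0 higher. Over all genes tested, 0.712% were called lower and 0.526% higher, 1.24% in all, and at an unadjusted p under 0.05 the members had 2 lower and 1 higher (Upk3b), against 4.31% lower and 3.73% higher of all genes. The members' median log2 ratio was -0.12, against -0.00024 for all genes. Both RNAs were drawn from whole ureters, in which fewer cells of a type and less RNA per cell cannot be told apart.

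**Figure D1:**
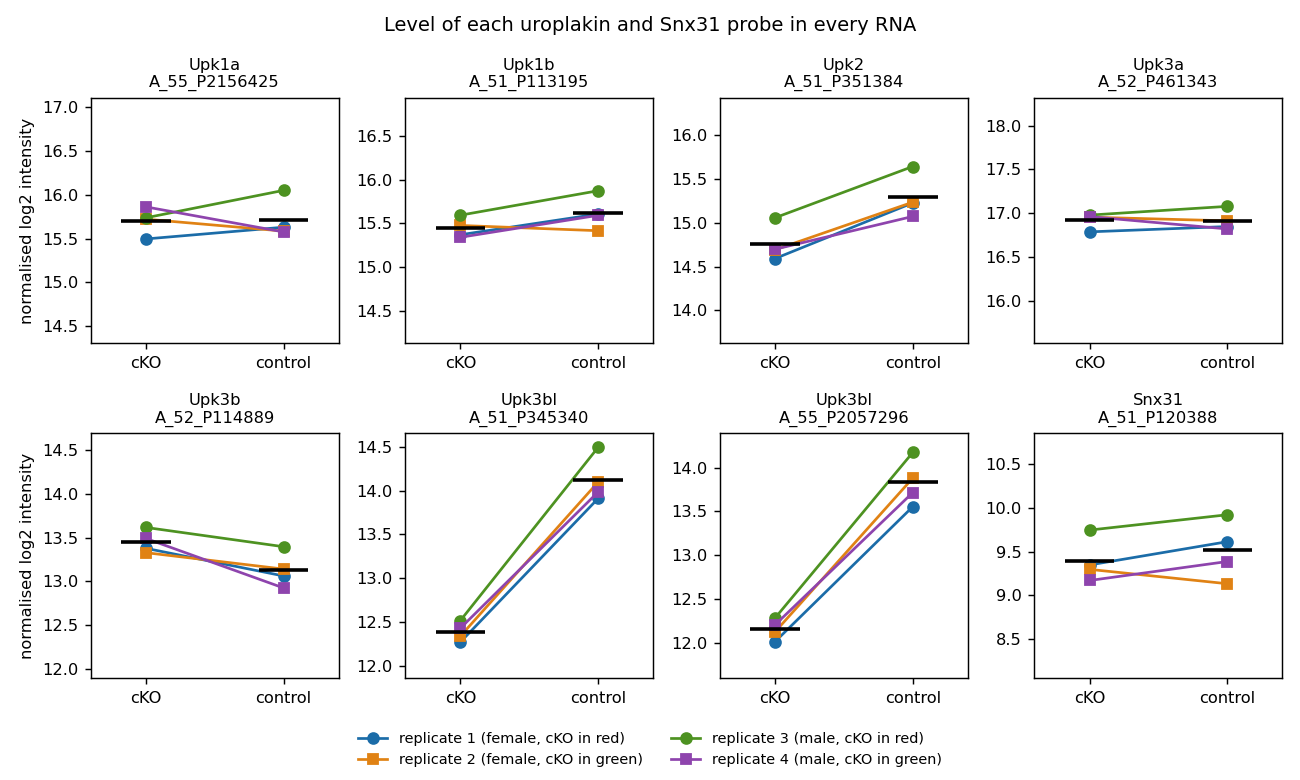
Level of each uroplakin and Snx31 probe (normalised log2 intensity) in the cKO and the control RNA, 1 panel a probe. Lines join the RNAs of 1 array and black bars are means (n = 4). The cKO RNAs lie below all control RNAs for both Upk3bl probes and for Upk2, and the genotypes overlap in the other panels. All panels span the same range of log2 units, but levels of different probes cannot be compared.

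The tetraspanin uroplakins Upk1a and Upk1b were not called changed. Upk1a had levels of 15.496, 15.72, 15.74 and 15.86 in the cKO RNAs of replicates 1 to 4, against 15.63, 15.59, 16.05 and 15.58 in the control RNAs. The RNAs of the genotypes overlapped, and the highest of all was a control RNA. The log2 ratios were -0.13, 0.14, -0.31 and 0.29, with a mean of -0.01 ± 0.27 (SD, n = 4), a 95% interval of -0.20 to 0.18 and adjusted p = 1.00 (limma). The sign of the Upk1a ratio followed the dye, with a mean of -0.22 over the arrays with cKO in red and 0.21 over those with cKO in green. The dye effect of Upk1a had adjusted p = 1.00 (limma), and over all genes 0% had a called dye effect. The fit takes the dye effect out of the ratio, so the interval of -0.20 to 0.18 leaves room for a change of 0.873-fold to 1.14-fold.

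Upk1b, the partner of Upk3a in the plaque, had levels of 15.37, 15.48, 15.59 and 15.34 in the cKO RNAs, against 15.61, 15.42, 15.87 and 15.59 in the control RNAs. On 3 of 4 arrays the cKO RNA was lower, and in replicate 2 it was slightly higher. The log2 ratios were -0.24, 0.06, -0.28 and -0.25, with a mean of -0.18 ± 0.16 (SD, n = 4) and a 95% interval of -0.38 to 0.03. The limma fit gave adjusted p = 0.752. The interval holds 0 close to its upper end, and its lower end is a level 0.768 times that of control.

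Upk2, the partner of Upk1a, was lower in cKO ureters by 1.45-fold. Its levels were 14.59, 14.69, 15.06 and 14.70 in the cKO RNAs, against 15.23, 15.24, 15.65 and 15.07 in the control RNAs. The highest cKO RNA, that of replicate 3, lay just under the lowest control RNA, that of replicate 4, so the genotypes did not overlap. Such a separation with cKO lower was found for 3.33% of all genes tested, and with cKO higher for 3.05%, which no member showed. The log2 ratios were -0.64, -0.54, -0.59 and -0.38, with a mean of -0.54 ± 0.11 (SD, n = 4), a 95% interval of -0.72 to -0.35 and adjusted p = 0.0367 (limma). All 16 spots of the probe, 4 on each array, gave a ratio below 0, between -0.68 and -0.32. By size Upk2 ranked 139 among the 153 lower genes. Upk2 was called in 9 of 16 processing settings, and the adjusted p was 0.154 without the array as a block (limma). It was 0.107 without replicate 1, 0.00527 without replicate 2, 0.0889 without replicate 3 and 0.00204 without replicate 4 (limma). A fit with an array left out measures the spread differently, so these p-values cannot be set against that of all 4 arrays.

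Upk3a, a widely used marker of superficial cells, had levels of 16.79, 16.95, 16.98 and 16.96 in the cKO RNAs, against 16.85, 16.91, 17.08 and 16.82 in the control RNAs. The genotypes overlapped almost fully. On the arrays the log2 ratios were -0.06, 0.04, -0.10 and 0.14, with a mean of 0.01 ± 0.11 (SD, n = 4) and adjusted p = 1.00 (limma). The 95% interval of -0.17 to 0.18 spans levels from 0.889 to 1.13 times those of control.

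Upk3b, a relative of Upk3a that is also made by mesothelium, the lining of body cavities, had a positive ratio on every array but was not called. Its levels were 13.38, 13.33, 13.62 and 13.49 in the cKO RNAs, against 13.06, 13.14, 13.40 and 12.93 in the control RNAs. The RNAs overlapped across arrays, since the control RNA of replicate 3 was above the cKO RNAs of replicates 1 and 2. The log2 ratios were 0.32, 0.19, 0.22 and 0.57, with a mean of 0.32 ± 0.17 (SD, n = 4) and a 95% interval of 0.10 to 0.54. The limma fit gave adjusted p = 0.288, while the unadjusted p was under 0.05. A positive ratio on all 4 arrays was found for 7.69% of genes tested, and a negative one, as for Upk3bl and Upk2, for 7.66%. Without replicate 2 the mean was 0.42 with adjusted p = 0.0142 (limma). With an array left out the fit also measures the spread differently, so this p cannot be set against that of all 4 arrays.

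Since Upk3b is read in mesothelium too, the markers of that tissue are given beside it. Of 11 mesothelial markers 10 were tested (Calb2 was not). Of these 1 was called higher and 0 lower, against 0.526% higher and 0.712% lower of all genes. The marker called was Msln, mesothelin, a surface protein of mesothelium, with a mean log2 ratio of 1.05 ± 0.11 (SD, n = 4) and adjusted p = 0.00428 (limma). The median over the list was -0.02, and the other 9 markers had log2 ratios from -0.32 to 0.11. The lowest, Nkain4, was lower at an unadjusted p under 0.05, and 2 markers were called lower without replicate 4. On the log2 scale the list summed to 15.48 to 15.68 in cKO, against 14.99 to 15.23 in control RNAs. Such a sum adds intensities of different probes and follows the brightest, so it is not a measure of mesothelial RNA. The part of mesothelial cells in the Upk3b ratio was not tested.

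Upk3bl, the relative of Upk3b that lies next to it on chromosome 5, was lower in cKO ureters by 3.33-fold. Its levels at the brighter probe were 12.27, 12.34, 12.52 and 12.43 in the cKO RNAs, against 13.91, 14.10, 14.50 and 13.99 in the control RNAs. Every cKO RNA lay more than 1 log2 unit below every control RNA. The log2 ratios were -1.64, -1.76, -1.98 and -1.56, with a mean of -1.74 ± 0.18 (SD, n = 4), a 95% interval of -1.96 to -1.52 and adjusted p = 0.00175 (limma). By size it ranked 13 among the 153 lower genes.

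The overlapping Upk3bl probe A_55_P2057296 gave levels of 12.01, 12.12, 12.28 and 12.20 in the cKO RNAs, against 13.55, 13.88, 14.17 and 13.72 in the control RNAs. These RNAs again did not overlap. Its log2 ratios were -1.54, -1.76, -1.89 and -1.51, averaging -1.68 ± 0.18 (SD, n = 4), which is 3.20-fold lower. With each probe as its own test, 0.58% of 28611 probes were called lower, and the adjusted p of the Upk3bl probes was 0.00167 and 0.00185 (limma). All 16 spots of each Upk3bl probe gave a ratio below 0, and the spots of 1 array differed by an SD of at most 0.0906 (log2), less than the 0.18 between arrays.

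Snx31, the sorting nexin, had levels of 9.35, 9.30, 9.75 and 9.17 in the cKO RNAs, against 9.61, 9.13, 9.92 and 9.39 in the control RNAs. The genotypes overlapped, and the cKO RNA was higher in replicate 2 alone. Its log2 ratios were -0.27, 0.16, -0.18 and -0.22, with a mean of -0.12 ± 0.20 (SD, n = 4), a 95% interval of -0.34 to 0.10 and adjusted p = 1.00 (limma).

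**Figure D2:**
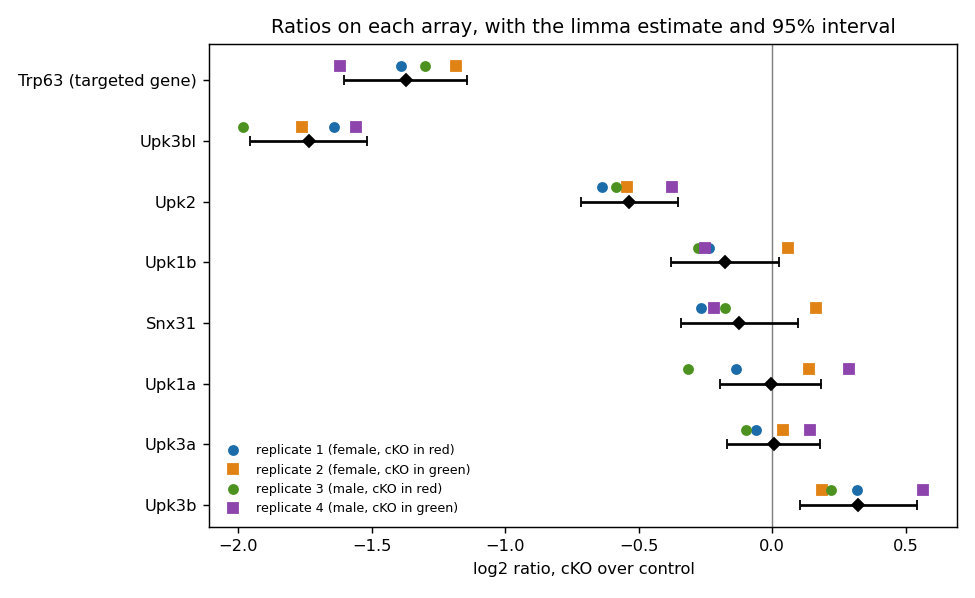
Log2 ratio of cKO over control for each member and for Trp63, the targeted gene. Coloured points are the 4 arrays, with circles where cKO was red and squares where it was green, and diamonds with bars are the limma estimate and its 95% interval. Upk3bl sits at -1.74 and Upk2 at -0.54 with every array below 0, Upk3b has every array above 0, and the intervals of the other members hold 0.

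Trp63 itself had a log2 ratio of -1.37 ± 0.18 (SD, n = 4), 2.59-fold lower in cKO ureters (adjusted p = 0.00323, limma), at its brightest probe. The other Trp63 probes disagreed in size. A_55_P1952056 gave -1.26 ± 0.36, A_52_P338796 gave -0.81 ± 0.34 and A_55_P2161055 gave -0.02 ± 0.16, and of these the first alone was called when every probe was tested by itself. The mean over all 4 Trp63 probes was -0.87, with adjusted p = 0.0177 (limma). A probe checks the deletion only if it lies in the deleted stretch, which the labels do not state. No difference between the sexes was called among the members. Upk3bl had a mean of -1.77 on the male and -1.70 on the female arrays, Upk2 -0.48 on the male and -0.59 on the female arrays, and Upk3b 0.39 on the male and 0.25 on the female arrays. The cKO-by-sex coefficient (male minus female) had adjusted p = 1.00 for each of the 7 genes (limma), against 0.0698% of all genes called.

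The levels also differed between replicates within a genotype. The RNAs of replicate 3 had the highest level of their genotype for 7 of 8 member probes in cKO (Upk1a was highest in replicate 4) and for 8 of 8 in control, a pattern chosen after the values were seen. Over all genes tested, replicate 3 was highest for 25.2% in cKO and 20.8% in control RNAs. The members' median deviation from the genotype mean in replicate 3 was 0.15 in cKO and 0.34 in control (log2). For all genes tested it was -0.00206 in cKO and 0.00543 in control. The 20 other superficial and intermediate cell genes had 0.09 in cKO and 0.09 in control. The 14 general epithelial markers had 0.07 in cKO and 0.17 in control, and the 10 smooth muscle markers 0.21 and 0.11. Some lists went the other way, such as mesothelium (-0.15 in cKO, -0.12 in control) and skeletal muscle (-0.27 in cKO, -0.05 in control). The ratios set RNAs of the same array against each other, so only the part of the members' shift that both RNAs share drops out of them. The shift was larger in the control RNA, and that difference does enter the ratios of replicate 3. The members' median log2 ratio was -0.24, 0.06, -0.28 and -0.22 in replicates 1 to 4. Whether the cell types made up a different share of that pair of RNAs was not tested.

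The neighbourhood of Upk3bl was read from the other probes within 100 kb of its own. In RefSeq the protein-coding genes run in the order Zp3, Dtx2, Upk3b, Upk3bl, Rasa4, Polr2j and Lrwd1. The Upk3b probe lies 19.6 kb away, and its mean ratio of 0.32 had the opposite sign to that of Upk3bl. The other 10 probes in this window had mean ratios between -0.13 and 0.00435, and 0 were called. They belong to Zp3, Dtx2, Rasa4, Polr2j, Lrwd1, Alkbh4 and Orai2, apart from a probe without a gene name near that of Polr2j. Dtx2, on the far side of Upk3b, gave -0.13 and -0.05 at its 2 probes, and Rasa4, the next gene beyond Upk3bl, gave -0.03. Around Upk2, 10 kept probes of 8 other gene or transcript names had mean ratios between -0.21 and 0.05, and 0 were called. Around Upk1a, the 17 kept probes of 14 genes ranged from -0.15 to 0.56 with 0 called, where the highest was Zbtb32.

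**Figure D3:**
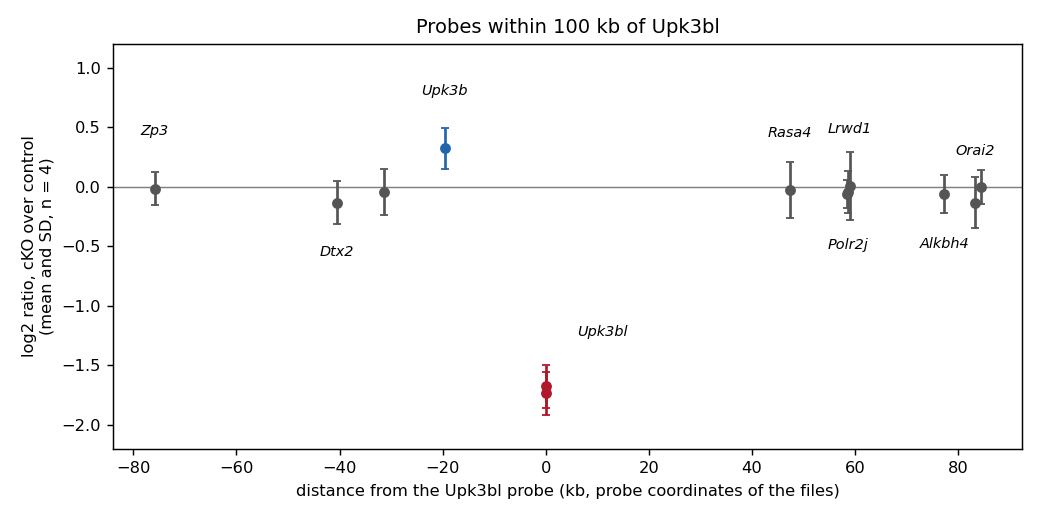
Mean log2 ratio of cKO over control (points, with SD, n = 4) of the kept probes within 100 kb of Upk3bl, against their distance in kb from its probe. The 2 Upk3bl probes lie at -1.74 and -1.68, Upk3b at 0.32, and the other 10 probes between -0.13 and 0.00435.

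Promoters were looked up in RefSeq on build GRCm38.p6, where 4 of 7 members matched (Upk1a, Upk3a, Upk3b and Upk3bl). Each stretch of 300 bases runs from 250 bases before the annotated start to 50 after it. The adjacent genes Upk3bl and Upk3b are shown because their ratios had opposite signs. Capitals mark matches, on either strand, to AACNGGTT (core letters bound by Grainyhead-like factors such as Grhl3), AGATAA (letters bound by GATA factors), TATAAA (the TATA box) or the p53-family half-site.
Upk3bl (chr5:136057017-136057316, plus strand): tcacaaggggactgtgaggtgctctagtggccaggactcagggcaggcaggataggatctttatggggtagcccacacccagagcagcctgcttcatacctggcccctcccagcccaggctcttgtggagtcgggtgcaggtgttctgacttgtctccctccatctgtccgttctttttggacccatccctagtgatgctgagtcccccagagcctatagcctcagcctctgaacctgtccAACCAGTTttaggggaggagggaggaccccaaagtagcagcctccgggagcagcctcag
Upk3b (chr5:136038246-136038545, plus strand): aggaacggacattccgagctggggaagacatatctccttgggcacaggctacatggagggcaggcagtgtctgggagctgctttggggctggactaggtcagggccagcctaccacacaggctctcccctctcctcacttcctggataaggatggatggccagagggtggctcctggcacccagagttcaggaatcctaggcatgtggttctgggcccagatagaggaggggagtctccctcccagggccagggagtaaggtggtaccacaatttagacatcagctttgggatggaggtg
The Upk3bl promoter held 1 AACNGGTT match on the minus strand, read AACCAGTT on the printed strand, whose first base lies 9 bases before the start. The share of all 32841 promoters with this motif was 2.089%. The Upk3b promoter held none of the 4 motifs, and neither did that of Upk1a.

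The promoter of Upk3a is shown as that of another gene of the Upk3 family, and because it holds a p53-family half-site. The p53 family includes p63.
Upk3a (chr15:85016891-85017190, plus strand): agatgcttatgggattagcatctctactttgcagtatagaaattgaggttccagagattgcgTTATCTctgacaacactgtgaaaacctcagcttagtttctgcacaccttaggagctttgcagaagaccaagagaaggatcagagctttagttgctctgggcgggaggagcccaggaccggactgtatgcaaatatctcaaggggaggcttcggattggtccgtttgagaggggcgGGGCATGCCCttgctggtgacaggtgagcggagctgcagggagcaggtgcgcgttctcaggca
It held 1 p53-family half-site, GGGCATGCCC, which reads the same on both strands and begins 13 bases before the start, and 1 AGATAA match on the minus strand, beginning 188 bases before the start. Among all promoters 8.358% held the half-site, 11.18% AGATAA and 13.62% TATAAA, and the half-site and AACNGGTT matches in these promoters did not overlap another motif. A match is a description of letters and not of binding, and no match says only that the letters are not in this window.

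The genes with ratios nearest to those of the called members, by Euclidean distance over the 4 arrays, are named as a description. Members and genes with only a provisional name, such as those with Gm or Rik, were passed over. Upk3bl was nearest to Wnt6, a secreted Wnt ligand (distance 0.318, mean log2 ratio -1.64), Duoxa1, a maturation factor of a dual oxidase (0.336, -1.59), Lypd3 (0.348, -1.86) and Trim29 (0.376, -1.88). All of these were called lower, which follows largely from choosing genes whose ratios are like those of a called gene. Upk2 was nearest to Papln (distance 0.150, mean log2 ratio -0.52), Trmt61b (0.156, -0.53), Cadm1, a cell adhesion molecule (0.157, -0.48) and Ppp1r13l, an inhibitor of p53-family proteins (0.160, -0.53). Of these 4 genes 3 were called lower, while Trmt61b had adjusted p = 0.0507 (limma).

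Other genes of the superficial and intermediate urothelial cells moved in both directions. Of 20 such genes tested, 3 were called higher and 1 lower, against 0.526% higher and 0.712% lower of all genes. The list was chosen with earlier results of these data known, and its median log2 ratio was 0.10. Krt20, a keratin of superficial cells, was higher by 3.77-fold (log2 ratio 1.92 ± 0.19, SD, n = 4). Ctse, the aspartic protease cathepsin E, was higher by 2.69-fold (1.43 ± 0.19) and Krt18, a keratin of simple epithelia, by 1.41-fold (0.50 ± 0.14). Slc14a1, a urea transporter, was lower by 3.79-fold (-1.92 ± 0.30). The list had 5 higher and 3 lower calls without replicate 2 or without replicate 4, and 2 lower calls without replicate 1 or without replicate 3. Krt20 was thus higher in the same RNAs in which Upk3a, another gene of superficial cells, had a ratio of 0.01.

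The vesicle traffic genes that serve the apical plaque were tested as 14 genes, of which 0 were called in either direction and 3 were higher at an unadjusted p under 0.05 (limma), a threshold that 3.73% of all genes passed in that direction. Mal, a membrane protein of apical transport that takes part in the incorporation of uroplakins, had a log2 ratio of 0.62 ± 0.36 (SD, n = 4), positive on every array, with adjusted p = 0.143 (limma). Sytl2, a Rab27 effector, had 0.39 ± 0.15 with adjusted p = 0.146 (limma). The list's median was 0.07, and without replicate 4 it had 3 higher calls, without replicate 1 or replicate 2 it had 1. Over all genes tested, 0.712% were called lower and 0.526% higher. Among the transcription factors of urothelial differentiation, 15 of 16 were tested (Foxa2 was not). The only call was Grhl3, which is needed for terminal differentiation of superficial cells, lower by 1.60-fold (-0.68 ± 0.22, adjusted p = 0.0467, limma), with 3 lower and 1 higher calls in the list without replicate 2 and 3 higher calls without replicate 4.

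The families of the members were read in the same way. Of 29 tetraspanins other than Upk1a and Upk1b, 27 were tested (not Tspan10 and Prph2). Of these 1 was called higher, against 0.526% of all genes. The gene called was Tspan8, at 0.74 ± 0.05 (SD, n = 4), or 1.67-fold, and the median of the family was 0.00377. Of 29 sorting nexins other than Snx31, 0 were called and 0 passed an unadjusted p under 0.05 (limma), with a median of 0.05, although 2 were called higher without replicate 4. The sorting nexins with the smallest p were Snx24 and Snx9, with log2 ratios of 0.20 and 0.17.

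Markers of other cell types were read in the same RNAs. The lists were chosen with earlier results of these data known, and over all genes tested 0.712% were called lower and 0.526% higher. Of the 11 basal cell markers 8 were called lower (Dapl1, Cdh3, Trp63, Krt5, Itgb4, Krt15, Krt14 and Krt17) with a median of -1.19, and their summed level was 15.22 to 15.43 in cKO and 15.67 to 16.02 in control RNAs. The list holds Trp63, the targeted gene, and fewer basal cells cannot be told apart from less RNA of these genes per cell. Among the 14 general epithelial markers Krt18 was called higher and 0 were lower, with a median of -0.11 and a summed level of 19.1 to 19.2 in cKO and 19.0 to 19.1 in control RNAs. These sums follow the brightest probes of each list and do not measure the amount of a cell type. All 11 markers of ureteric mesenchyme and all 10 of smooth muscle were tested and 0 were called in limma, with 1 lower and 1 higher in mesenchyme and 0 in smooth muscle at an unadjusted p under 0.05. Likewise 0 of 8 endothelial and 0 of 10 macrophage markers were called, with 0 and 4 (all lower) at an unadjusted p under 0.05, against 4.31% lower and 3.73% higher of all genes. The smallest p in these lists belonged to Foxf1 (0.45) and Fibin (-0.38) in mesenchyme, Des (-0.11) and Myocd (0.24) in smooth muscle, Cldn5 (0.19) and Egfl7 (-0.17) in endothelium and C1qc (-0.26) and Csf1r (-0.21) in macrophages, as log2 ratios. The nephron tubule marker Cubn (2.22 ± 0.28, SD, n = 4), the collecting duct marker Wnt9b (0.86 ± 0.18) and the skeletal muscle markers Myl1 (-0.78 ± 0.12) and Ckm (-0.71 ± 0.26) were called, and the medians of these lists were 0.00317, 0.35 and -0.41. At an unadjusted p under 0.05, 2 of 6 nephron tubule and 6 of 9 collecting duct markers were higher and 6 of 10 skeletal muscle markers lower. Several of these counts differed when an array was left out, in fits that measure the spread from fewer arrays. Without replicate 4 there were 5 lower macrophage, 1 higher endothelial, 5 higher collecting duct and 5 lower skeletal muscle calls. The same fit had 2 lower and 2 higher general epithelial, 1 lower collecting duct, and 1 lower and 1 higher nephron tubule calls. Without replicate 2 the general epithelial list had 3 lower and 2 higher calls, and the mesenchymal list 2 lower and 1 higher. That fit also had 3 higher nephron tubule, 5 higher collecting duct and 4 lower skeletal muscle calls. Without replicate 1 there were 2 higher collecting duct, 1 higher mesenchymal and 4 lower skeletal muscle calls. In the general epithelial list 0 markers were called without replicate 1 or without replicate 3. The part of any of these cell types in the ratios of Upk3bl and Upk2 was not tested.

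**Figure D4:**
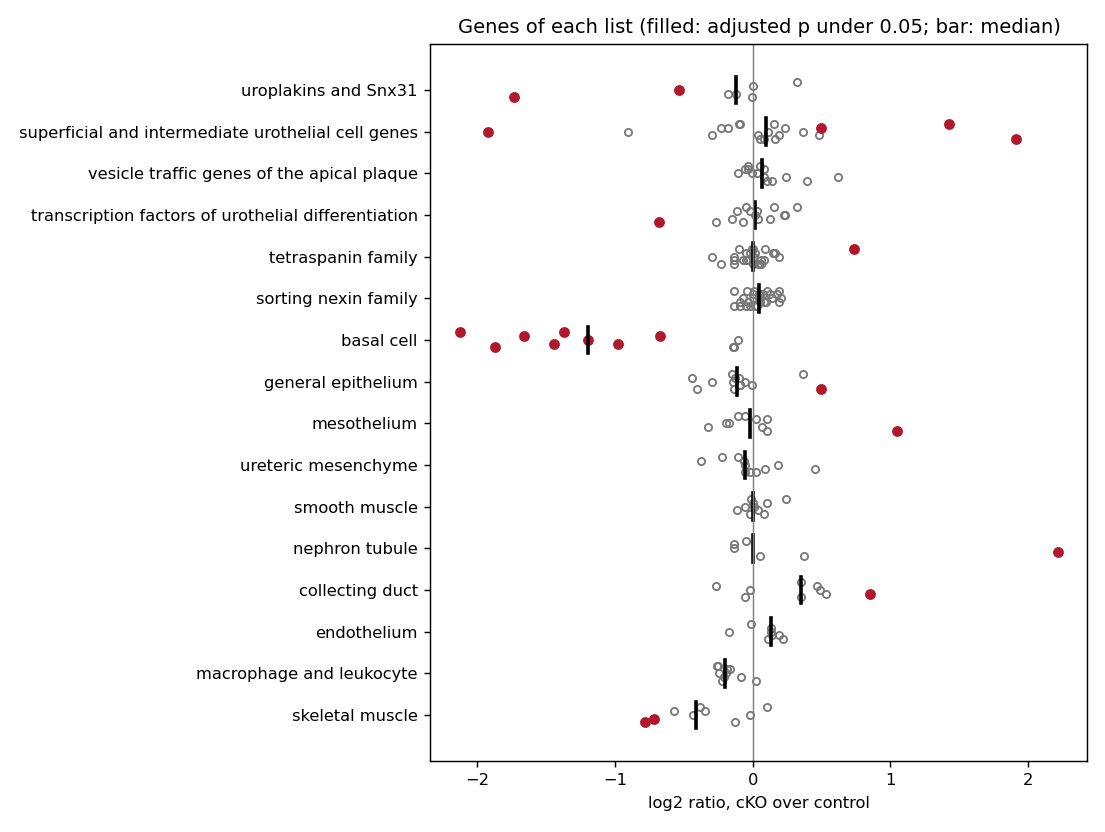
Log2 ratio of cKO over control of every tested gene of the uroplakin and Snx31 group, the related families and the marker lists. Filled red points passed an adjusted p under 0.05, open points did not, and black bars are medians. The median is -0.12 for the uroplakins and Snx31, 0.10 for the other superficial and intermediate cell genes and -1.19 for basal cell markers.

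**Figure D5:**
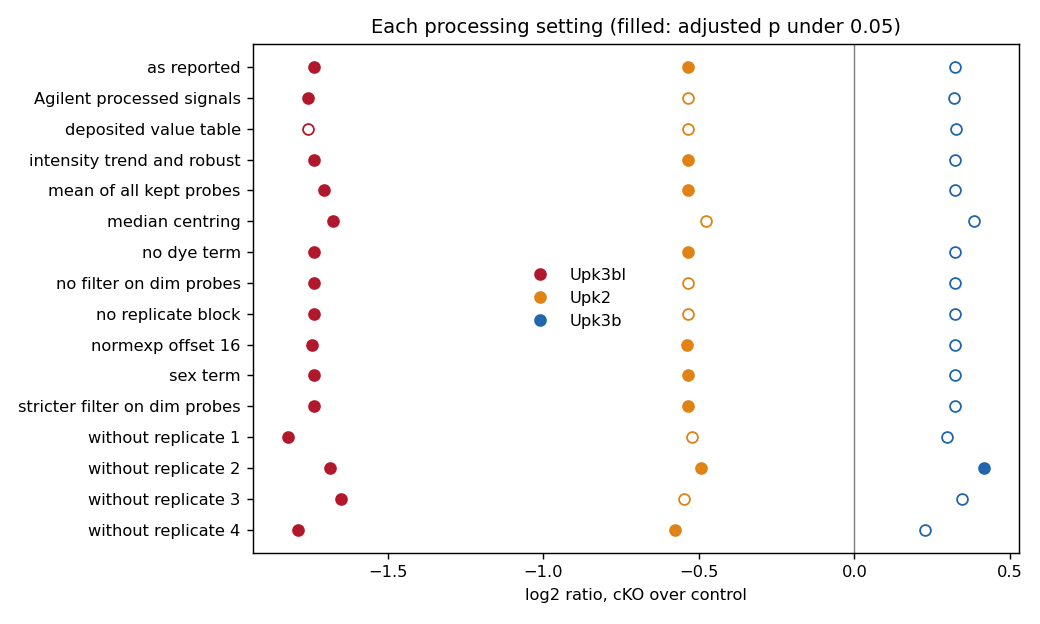
Mean log2 ratio of cKO over control of Upk3bl, Upk2 and Upk3b under 16 processing settings, 1 row a setting, filled where the adjusted p is under 0.05. Upk3bl lies between -1.82 and -1.65 and is filled in 15 of 16 settings, Upk2 lies between -0.58 and -0.48 and is filled in 9, and Upk3b lies between 0.23 and 0.42 and is filled in 1.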

How the data were processed

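RNA of E15.5 ureters was measured on 4 Agilent arrays of 2 colours. Labelling used 200 ng of RNA and 1 T7 amplification round, per the labels. Scanner files deposited by the authors hold each spot's intensity and other flags (well above background, nonuniform, saturated), with mm9 coordinates. Per the file headers, Feature Extraction 10.7.3.1 made them. The authors also deposited a value table of log2 ratios. Set against scanner ratios of red over green its slope was 0.951, -0.950, 0.947 and -0.959 in replicates 1 to 4, so it gives cKO over control, already turned. Its median is 0 in each column, and 32.2% to 32.6% of its values are exactly 0, set by a rule that the labels do not state.

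Spot intensities, which the authors deposited, were corrected with normexp (offset 50) and normalised by loess, with control spots at weight 0 and 17 to 33 nonuniform spots dropped per array. Saturation was absent, and the 4 spots of each probe were averaged. Probes passed if, in either genotype, every array had a share of 0.5 or more of the spots well above background, and the brightest kept probe stood for a gene. This left 28611 of 39429 probes and 21501 genes. Levels are channel values after loess and Aquantile. Precision is limited by the number of arrays. In limma 3.58.1 (R 4.3.3), ratios were modelled with a cKO and a dye coefficient, two-sided p and Benjamini-Hochberg adjustment over all genes. Since an array holds 1 RNA of each genotype, the array is the pair. Across genes, which are not independent replicates, the Pearson r between the ratios of 2 arrays ran from -0.06 to 0.62. It was -0.06 for replicates 2 and 4, 0.16 for 3 and 4 and 0.46 for 1 and 4. Spearman values for these pairs were -0.32, -0.21 and 0.22. The pairs without replicate 4 had Pearson r of 0.26 to 0.62 and Spearman values of 0.04 to 0.58. The fit was tested on simulated data.

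Named genes are the 7 members, Trp63, the called genes of each list (otherwise the 2 with the smallest p) and the 4 nearest genes of each called member, with further list genes as examples. The members and lists were chosen with earlier results of these data known. Symbols came from the files for 30385 probes, and 1442 were named through an accession. Settings varied were background, normalization, filter, probe choice, dye, sex, pairing, variance model, the deposited table and each array left out.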

Additional observations from a re-analysis of the deposited data

Results flagged for a closer look

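In 3 cases 1 of 4 values of a uroplakin stood apart from the other 3 by more than Dixon's 95% critical value, which chance exceeds in about 1 in 20 groups. Since cKO levels, control levels and ratios were each looked at for several probes, some such cases can arise by chance. The control RNA of replicate 3 had an Upk1a level of 16.05 (normalised log2 intensity), above the other control RNAs. The cKO RNA of replicate 1 had an Upk3a level of 16.79, below the other cKO RNAs. The Upk1b log2 ratio of replicate 2 was 0.0601, while those of the other arrays lay between -0.28 and -0.24. Neither Upk1a, Upk3a nor Upk1b was called changed with all 4 arrays.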

How the results depend on the processing

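The members had 2 lower calls. There was 1, that of Upk3bl, with the processed signals, median centring, no filter on dim probes or no replicate block, and 0 with the deposited value table. Leaving out an array gave 1 to 2 lower and 0 to 1 higher calls. The Upk3bl log2 ratio kept its sign in all settings and had adjusted p = 0.184 with the deposited table (limma). The array pairs the RNAs by design, and with no replicate block Upk2 had -0.54 with adjusted p = 0.154 (limma). Over the 16 settings the adjusted p of Upk2 was 0.00204 to 0.277 (limma).

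Over all genes, 153 were lower and 113 higher. The deposited table, 32.2% to 32.6% of whose values are exactly 0, gave 0 and 1, no dye term 266 and 194, no filter 55 and 31, and a sex term 310 and 233. Leaving out an array gave 155 to 855 lower and 128 to 753 higher genes, with the most without replicate 4. The cause of these differences was not tested. With an array left out or a sex term, fewer values are left to measure the spread of a gene. The limma estimate then leans more on the spread of all genes. The adjusted p of Upk3bl was 2.4e-23 without replicate 1, against 0.00175 with all 4 arrays (limma). Such counts and p-values therefore do not measure how far a call rests on 1 array. No setting moved the median of all genes beyond 0.03. Small ratios of Upk1a changed sign with median centring (0.03), without replicate 2 (0.03) and without replicate 3 (0.04), and those of Upk3a without replicate 1 (-0.00418) and without replicate 4 (-0.02), none past the threshold. Across lists and settings, 382 of 450 counts of called genes stayed within 1.5 times those given, 48 moved up and 20 down, most of them without replicate 2, without replicate 4 and with the deposited table. Most of the counts given were 0, and a 0 that stayed 0 is among those that stayed. The higher count of general epithelium moved in 10 settings and stayed in 5. The lower count of superficial and intermediate cell genes moved in 9 and stayed in 6, and that of basal markers moved in 2 and stayed in 13.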
